A study of Mus musculus with 4 samples.

Results

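Genes that respond within minutes to a signal or to stress are described here across spleen cells of lymphoma-bearing mice. They are the immediate early genes Fos, Fosb, Jun, Junb, Egr1, Atf3 and Dusp1 and the inducible heat shock genes Hspa1a and Hspa1b, 9 of the 17252 genes in the deposited Drop-seq count table. They were chosen by name, with earlier results of these data known. All 9 had at least 1 unique molecular identifier (UMI, the tag that marks 1 captured transcript) in the cells kept. In Drop-seq a cell and a bead are caught in the same droplet, and the bead's primers write a shared barcode into the cell's transcripts.

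The mice were BALB/c animals, age-matched young adult females, and all of them carried BCL1, a transplantable mouse B cell lymphoma, from 10000 tumor cells injected on day 0. The isotype control group received a control antibody, the anti-CD20 group received an antibody to the B cell protein CD20 on day 4, the anti-CD27 group received the agonist of the costimulatory receptor CD27 on days 5 to 8, and the combination group received both. Spleens were taken on day 13 and digested with Liberase, an enzyme mix, so every cell of every group went through tissue digestion. The part of the study's methods on single cells gives an earlier injection schedule than the labels, and how many mice were pooled for a library is not stated. Each treatment was 1 library. The count table names 1 set of columns PBS, and these were taken as the isotype control because the other 3 names match the other 3 treatments.

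Cells were barcodes with 300 to 3000 detected genes: 340 in the isotype control, 501 with anti-CD20, 497 with anti-CD27 and 432 with the combination, or 1770 of 3198 barcodes. These held 440710, 939565, 908930 and 917486 UMIs in that order, and the median cell held between 1031 and 1395.5 UMIs. Mitochondrial transcripts took between 3.81% and 5.995% of a library's UMIs, lowest in the isotype control and highest with anti-CD20. No barcode occurred in more than 1 library. Levels are given as CPM, the UMIs of a gene divided by all UMIs of the same cells and scaled to 1000000. Ranges in parentheses are exact 95% intervals, which cover counting error only, and UMIs of the same cell are not independent draws. With 1 library per treatment there was no replicate of a treatment and no test of a difference between treatments could be made.

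Immediate early genes are switched on by proteins already present in the cell, without new protein synthesis, after growth factors, antigen receptor signals, cytokines or stress. Fos and Fosb proteins pair with Jun and Junb proteins to form the transcription factor AP-1, Egr1 is a zinc finger transcription factor downstream of MAP kinases, and Atf3 is a stress-induced member of the ATF and CREB family. Dusp1 encodes a phosphatase that switches MAP kinases off again. Hspa1a and Hspa1b encode nearly the same inducible 70-kDa heat shock protein, a chaperone whose genes are switched on by the factor HSF1 when proteins unfold. The same genes are known to be induced in cells while a tissue is digested and handled, and they are also used as signs of activation of lymphocytes and myeloid cells, so a level in a library cannot be assigned to either source from these counts.

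The promoters of the members differ in the short sequences that such signals act on. The stretches printed here are the 150 bases before the transcription start of the RefSeq annotation on GRCm38.p6, the build the count table's mm10 corresponds to, written 5′ to 3′ on the gene's strand. They are shown because the heat shock pair has nearly the same promoter and because 3 of the immediate early genes carry a different element. Capitals in the heat shock pair mark GAANNTTC, the inverted repeat at the core of the heat shock element, and ATTGG, which is CCAAT on the other strand. The Hspa1a stretch lies at chr17:34972157-34972306 on the minus strand and the Hspa1b stretch at chr17:34959239-34959388 on the minus strand.
Hspa1a: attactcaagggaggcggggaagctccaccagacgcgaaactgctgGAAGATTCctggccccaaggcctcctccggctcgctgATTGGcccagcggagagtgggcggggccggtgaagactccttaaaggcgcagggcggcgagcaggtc
Hspa1b: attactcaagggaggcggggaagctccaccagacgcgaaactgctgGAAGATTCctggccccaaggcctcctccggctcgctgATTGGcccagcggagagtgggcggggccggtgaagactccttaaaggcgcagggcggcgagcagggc

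Over the 250 bases before the start the 2 heat shock promoters differed at 3 positions (98.8% identity), and over the 150 bases printed they differed at 1. GAANNTTC lay 104 bases before the start in both. The 2 genes lie in the same orientation on chromosome 17 in GENCODE, Hspa1a at chr17:34969190-34972156 and Hspa1b at chr17:34956436-34959238, with 9951 bases between them. Their transcripts also share sequence. Of all 50-base stretches, the length of the sequenced read, 58.8% of those in Hspa1a and 62.3% of those in Hspa1b occurred exactly in the other gene, but none of those in the last 600 bases did. A read from a shared stretch cannot be assigned to 1 gene, so the sum of both is given beside each.

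In the immediate early genes capitals mark TGACG, the shared core of the elements that bind CREB and ATF proteins, and CCAAT. The Fos stretch lies at chr12:85473740-85473889 on the plus strand, the Junb stretch at chr8:84978749-84978898 on the minus strand and the Dusp1 stretch at chr17:26508473-26508622 on the minus strand. In Dusp1 the cores of both strands join into the full palindrome TGACGTCA, 143 bases before the start.
Fos: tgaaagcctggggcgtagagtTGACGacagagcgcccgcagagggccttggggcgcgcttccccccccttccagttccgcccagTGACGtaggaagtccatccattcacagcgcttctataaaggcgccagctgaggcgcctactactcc
Junb: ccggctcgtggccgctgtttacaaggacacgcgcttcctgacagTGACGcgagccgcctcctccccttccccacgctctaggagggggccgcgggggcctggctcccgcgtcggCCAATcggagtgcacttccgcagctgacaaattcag
Dusp1: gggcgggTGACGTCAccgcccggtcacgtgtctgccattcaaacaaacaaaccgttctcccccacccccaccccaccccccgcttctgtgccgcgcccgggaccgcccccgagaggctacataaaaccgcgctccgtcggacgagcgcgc

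Of the 9 members, 8 had a promoter in the RefSeq table, all but Egr1. TGACG, searched on both strands over 250 bases, occurred in 5 of the 8 (Fos, Fosb, Junb, Atf3 and Dusp1) and in 17.8% of all 32851 promoters of that length. GAANNTTC, which reads the same on both strands, occurred in 3 of the 8 (Jun, Hspa1a and Hspa1b) and in 6.69% of all, and CCAAT, searched on both strands, in 4 of the 8 (Jun, Junb, Hspa1a and Hspa1b) and in 33.8% of all. The CArG box, the site of serum response factor, was found in 0 of the 8 windows and in 1.47% of all. Egr1 and sequence beyond the 250 bases were not searched, so the count does not show that these genes lack the site. These matches describe the sequence alone. In GENCODE on GRCm38, Fos lies at chr12:85473890-85477273 on the plus strand, and Fosb at chr7:19302696-19310051, Jun at chr4:95049034-95052222, Junb at chr8:84974484-84978718, Atf3 at chr1:191170296-191218039 and Dusp1 at chr17:26505590-26562128 lie on the minus strand. The Dusp1 stretch printed above lies within this GENCODE span, because its RefSeq start is not the outer end of the span.

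Junb gave more UMIs than any other member. Summed over the 4 libraries there were 508 UMIs of Junb, 266 of Jun, 229 of Fos, 122 of Egr1, 58 of Dusp1, 56 of Hspa1b, 51 of Hspa1a, 47 of Atf3 and 9 of Fosb. The 7 immediate early genes together gave 1239 UMIs and the heat shock pair 107. At this depth 1251 of 1770 cells (70.7%) showed none of the 7 immediate early genes, 387 cells (21.9%) showed 1 and 91 cells (5.14%) showed 2.

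As a sum, the immediate early genes ranged from 348 to 443 CPM over the 4 libraries. The sum was 383 CPM in the isotype control, 370 with anti-CD20, 348 with anti-CD27 and 443 with the combination, from 169, 348, 316 and 406 UMIs. The share of cells with at least 1 of their UMIs was 24.1%, 27.5%, 31.6% and 32.9%. Because the isotype control cells were shallower, the share expected when every cell is thinned to 400 UMIs is the fairer value, and it was 11.9%, 11.4%, 14.1% and 14.1%. The single genes behind this sum went different ways, as the plot of all 9 members by library shows.

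**Figure D1:**
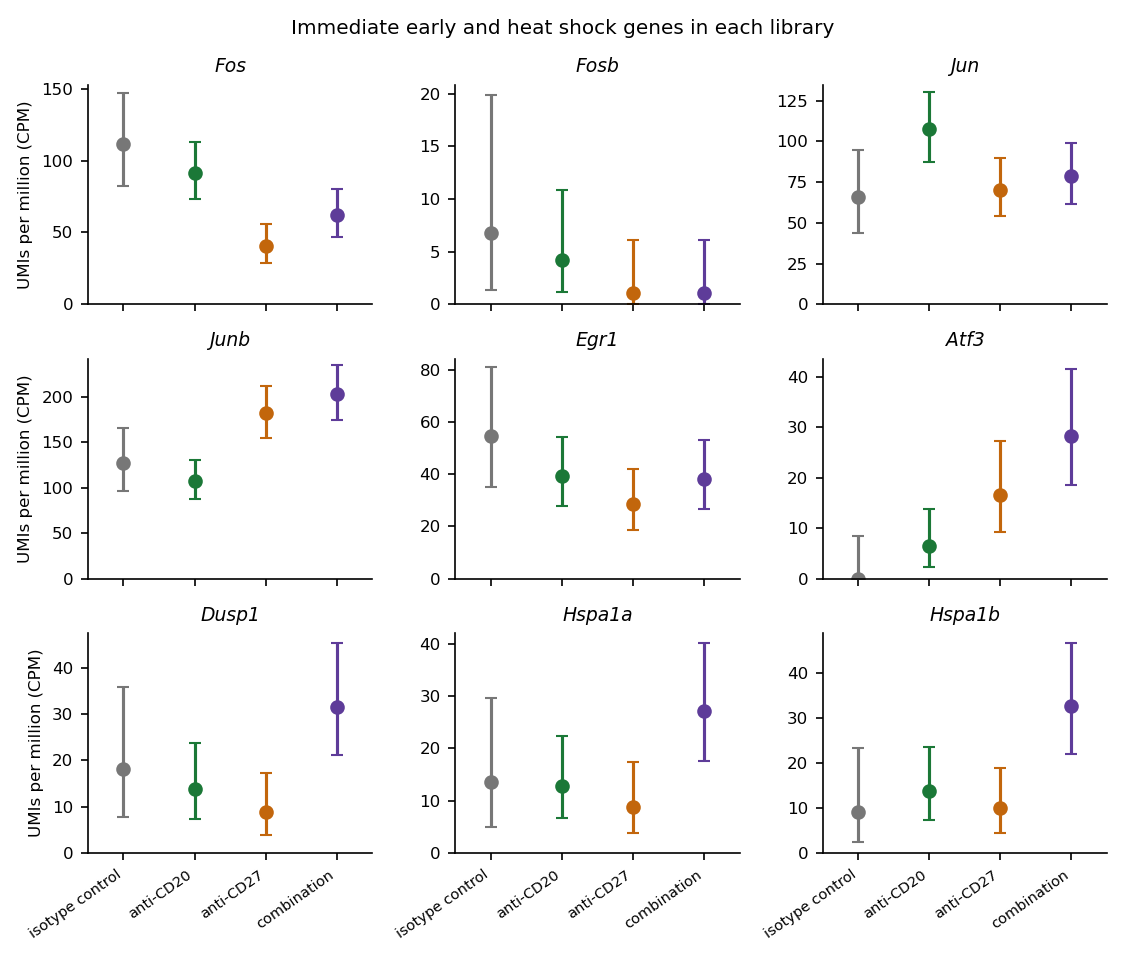
Level of each of the 9 members in each library, in CPM of summed UMIs on the vertical axis, with exact 95% Poisson intervals for counting error as bars. Junb was highest with the combination (203 CPM) and anti-CD27 (182 CPM), Fos was highest in the isotype control (111 CPM), and Atf3 was at 0 in the isotype control.

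Junb, an AP-1 member that can oppose Jun, stood at 127 CPM in the isotype control, 107 with anti-CD20, 182 with anti-CD27 and 203 with the combination. Fos went the other way, at 111 CPM in the isotype control, 91.5 with anti-CD20, 40.7 with anti-CD27 and 62.1 with the combination. Jun stood at 65.8, 107, 70.4 and 78.5 CPM in the same order. The libraries with anti-CD27 were thus the higher pair for Junb and the lower pair for Fos, while Jun was highest with anti-CD20. Of the 101 Jun UMIs with anti-CD20, however, 27 came from 1 plasma-like cell.

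Egr1 stood at 54.5 CPM in the isotype control, 39.4 with anti-CD20, 28.6 with anti-CD27 and 38.1 with the combination. Dusp1, the MAP kinase phosphatase, stood at 18.2, 13.8, 8.80 and 31.6 CPM in the same order, from 8, 13, 8 and 29 UMIs. Atf3 had 0 UMIs among the 440710 of the isotype control, which allows up to 6.81 CPM at a floor of 3 counts and 8.37 CPM at the upper end of the interval, and stood at 6.39 CPM with anti-CD20, 16.5 with anti-CD27 and 28.3 with the combination. Of the 15 UMIs with anti-CD27, 8 came from 1 cell. Fosb had 3, 4, 1 and 1 UMIs, too few for any comparison.

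The heat shock pair was highest with the combination. Hspa1a stood at 13.6 CPM in the isotype control, 12.8 with anti-CD20, 8.80 with anti-CD27 and 27.2 with the combination. Hspa1b stood at 9.08, 13.8, 9.90 and 32.7 CPM in the same order. The combination library was the highest of the 4 for both genes, and their sum was 22.7, 26.6, 18.7 and 59.9 CPM from 10, 25, 17 and 55 UMIs. The 10 UMIs of the isotype control came from only 2 cells, 8 of them from 1 of these.

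The first comparison asks what anti-CD27 adds to anti-CD20. With the combination, Atf3, Dusp1, Hspa1a, Hspa1b and Junb were higher than with anti-CD20 alone, and Fos and Jun were lower. The log2 ratio was 2.15 (0.84 to 3.72) for Atf3, 1.19 (0.20 to 2.26) for Dusp1, 1.09 (0.05 to 2.22) for Hspa1a, 1.24 (0.26 to 2.30) for Hspa1b and 0.92 (0.56 to 1.28) for Junb. It was −0.56 (−1.07 to −0.06) for Fos and −0.05 for Egr1, whose interval held 0. The interval for Jun, at −0.45, ended at 0 to 2 decimals. Of the 8 members with at least 30 UMIs in the 2 libraries, 4 were at least 2-fold higher (Atf3, Dusp1, Hspa1a and Hspa1b) and 0 at least 2-fold lower, where 9.57% of all 7572 such genes were 2-fold higher and 8.54% were 2-fold lower. The median log2 ratio was 1.004 over the 8 members and −0.08 over all 7572 genes. With the classes that both libraries hold weighted alike, Junb turned to −0.22, Atf3 to −0.49, Dusp1 to −0.70 and Hspa1a to −0.27, and as means over cells Fos turned to 0.11 and Jun to 0.0198. The sum of the immediate early genes differed by 0.26 (0.05 to 0.47) and the heat shock sum by 1.17 (0.47 to 1.92).

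The cells of the 2 libraries were not of the same kinds. Cells of the 2 B cell classes made 226 of the 501 cells with anti-CD20 and 3 of the 432 with the combination, which had 84 against 19 macrophage/monocyte-like cells and 72 against 9 granulocyte-like cells. In a count summed over a library, more cells of a type and more RNA per cell cannot be told apart. Without granulocyte-like cells the difference in the immediate early sum was −0.12 (−0.36 to 0.12), and with the 5 classes of at least 10 cells in both libraries weighted alike it was −0.66. Without macrophage/monocyte-like and dendritic-like cells the difference in the heat shock sum was 0.22 (−1.09 to 1.49), and with the classes weighted alike it was −0.11.

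The second comparison asks what anti-CD27 does without anti-CD20. Fos was lower with anti-CD27 than in the isotype control, by a log2 ratio of −1.45 (−2.11 to −0.80), and so was Egr1, by −0.93 (−1.79 to −0.07), although Egr1 turned to 0.37 with classes weighted alike. Junb was higher, by 0.51 (0.07 to 0.98). Atf3 had 0 UMIs in the isotype control and 15 with anti-CD27, which is 2.42-fold when 3 counts are set as the floor. The interval of its log2 ratio began at 0.80, and 8 of the 15 UMIs came from 1 cell. Of the 4 members with 30 UMIs, 1 was 2-fold lower (Fos) and 0 were 2-fold higher, beside 6.34% and 7.46% of all 6612 genes. The intervals of the immediate early sum, at −0.14 (−0.42 to 0.14), and of the heat shock sum, at −0.28 (−1.49 to 1.01), held 0. The heat shock ratio turned to 1.40 without the cell with most of its UMIs in each library and to 1.57 as a mean over cells.

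Between anti-CD20 and the isotype control few members differed. Jun was higher by 0.71 (0.10 to 1.36), with the plasma-like cell named above holding 27 of its UMIs, and the intervals of Fos, Junb and Egr1 held 0. Of these 4 members, 0 were 2-fold higher or lower, beside 3.45% and 3.09% of all 6636 genes. Their sum with the other immediate early genes differed by −0.05 (−0.32 to 0.22) and the heat shock sum by 0.23, with an interval that held 0, or by 2.22 without the cell with most of its UMIs in each library.

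The combination against anti-CD27 asks what anti-CD20 adds. Dusp1 was higher by 1.84 (0.68 to 3.18), Hspa1a by 1.63 (0.44 to 2.99) and Hspa1b by 1.72 (0.61 to 2.98). These 3 of 8 members were at least 2-fold higher and 0 were 2-fold lower, beside 3.27% and 3.73% of all 7399 genes. The comparison shares the combination library with the first and the anti-CD27 library with the second, so it is not a further measurement of either. For the immediate early sum the ratio was 0.35 (0.13 to 0.56), and by 0.05 without granulocyte-like cells. The heat shock sum differed by 1.68 (0.87 to 2.56), and by 1.17 (−0.39 to 2.89) without macrophage/monocyte-like and dendritic-like cells.

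**Figure D2:**
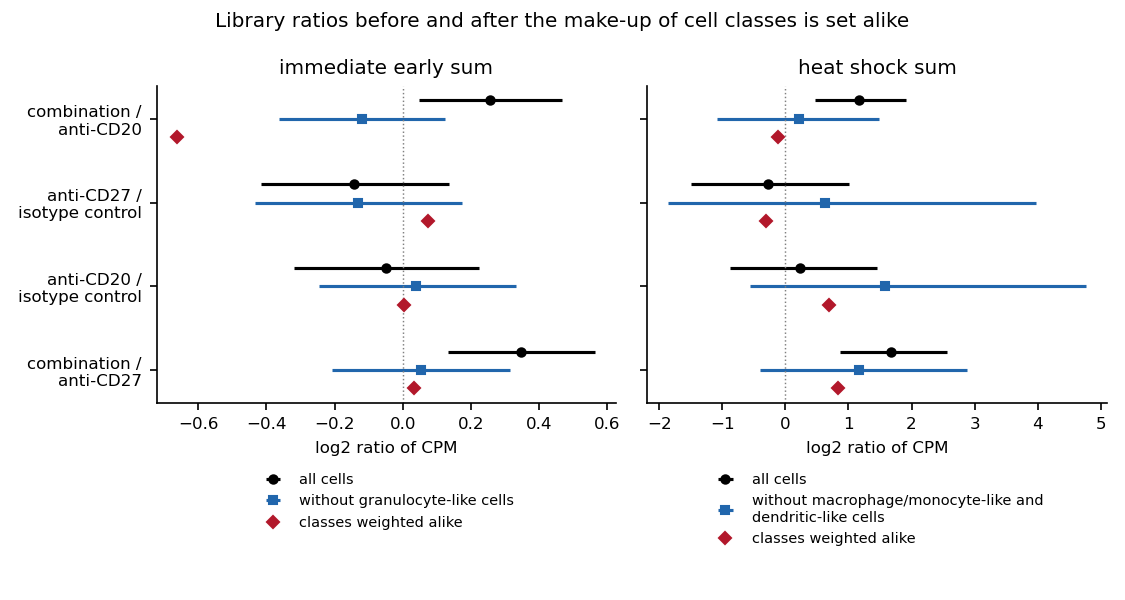
Log2 ratio of CPM (horizontal axis) of the immediate early and heat shock sums for the 4 comparisons of libraries, over all cells and without the named classes with exact 95% intervals for counting error, and with classes weighted alike as points without an interval. The immediate early sum of the combination against anti-CD20 lay at 0.26 over all cells and at −0.12 without granulocyte-like cells, and the heat shock sum at 1.17 over all cells and at 0.22 without macrophage/monocyte-like and dendritic-like cells.

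To place the members in cell types, cells were clustered without the members and the wider lists, and the 13 clusters were named from marker genes. This gave 10 classes: B-like (463 cells), T-like (465), germinal center B-like (187), macrophage/monocyte-like (156), granulocyte-like (138), effector CD8 T-like (114), erythroid-like (108), dendritic-like (71), NK-like (44) and plasma-like (24). Each cluster had at least 4 of its class's markers among its 30 leading genes. Class levels are descriptions, since the cells that made a class are the cells measured in it.

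Myeloid and plasma-like cells held the highest levels of the immediate early genes. Pooled over the libraries the sum was 1201 CPM in plasma-like, 906 in granulocyte-like, 671 in macrophage/monocyte-like and 515 in dendritic-like cells. It was 274 CPM in B-like, 269 in T-like, 239 in effector CD8 T-like, 214 in germinal center B-like, 142 in NK-like and 102 in erythroid-like cells. Neighbours in this order differed beyond counting error down to the step from dendritic-like to B-like cells, at a log2 ratio of 0.91 (0.50 to 1.31), and from B-like cells on the intervals of all neighbouring pairs held 0. The place of the plasma-like class rested on few cells. Of its 117 UMIs, 64.1% came from 2 of the 24 cells, and without them it stood at 490 CPM.

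The same order did not hold for single genes. Junb was highest in granulocyte-like cells at 570 CPM (488 to 662), followed by dendritic-like cells at 237, T-like at 180, effector CD8 T-like at 166 and macrophage/monocyte-like at 141. It was lowest in erythroid-like cells, at 45.1 CPM. Granulocyte-like and dendritic-like cells differed by a log2 ratio of 1.27 (0.73 to 1.83) for Junb, and the intervals of all later neighbours held 0. Junb was the member that T-like cells held most of, with 95 of their 142 immediate early UMIs, and effector CD8 T-like cells likewise, with 50 of 72.

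Fos and Jun, the classical AP-1 pair, were distributed otherwise. Fos stood at 503 CPM in plasma-like, 173 in macrophage/monocyte-like and 168 in granulocyte-like cells, where the last 2 could not be told apart. It was 54.2 CPM in dendritic-like, 43.7 in B-like, 18.9 in T-like and 16.6 in effector CD8 T-like cells, with 1 UMI in erythroid-like and 0 in NK-like cells. Jun stood at 493 CPM in plasma-like, 176 in dendritic-like, 157 in macrophage/monocyte-like and 116 in B-like cells, and at 6.63 CPM, from 2 UMIs, in effector CD8 T-like cells. Without the 2 plasma-like cells that held most of the class's immediate early UMIs, plasma-like cells stood at 315 CPM for Fos and 140 for Jun, the latter below dendritic-like cells. Granulocyte-like cells stood among the highest classes for Fos and Junb and at 49.4 CPM for Jun.

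Atf3 was nearly all in macrophage/monocyte-like cells, which held 40 of its 47 UMIs at 107 CPM (76.1 to 145). Granulocyte-like cells held 5 UMIs, dendritic-like and erythroid-like cells 1 each, and B-like, germinal center B-like, plasma-like, T-like, effector CD8 T-like and NK-like cells 0. Macrophage/monocyte-like cells held 6 of the 6 Atf3 UMIs with anti-CD20, 14 of 15 with anti-CD27 and 20 of 26 with the combination. Dusp1 was highest in granulocyte-like cells (59.3 CPM, 18 UMIs) and macrophage/monocyte-like cells (42.6 CPM, 16 UMIs). Egr1 was highest in plasma-like cells, at 92.3 CPM from 9 UMIs, followed by germinal center B-like cells at 58.5 and macrophage/monocyte-like cells at 48.0, without a pair of neighbours that differed beyond counting error. Of the 9 Egr1 UMIs of plasma-like cells 8 came from 2 cells, without which the class stood at 11.7 CPM, and as a mean of the libraries macrophage/monocyte-like cells stood at 28.0 CPM.

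The heat shock pair was highest in dendritic-like and macrophage/monocyte-like cells. Its sum stood at 190 CPM in dendritic-like and 125 CPM in macrophage/monocyte-like cells, whose intervals overlapped, then at 41.0 in plasma-like, 32.2 in T-like and 16.6 in effector CD8 T-like cells. B-like cells held 0 UMIs of the pair in 463 cells, which allows up to 6.20 CPM at the upper end of the interval, and NK-like cells held 0 in 44. Granulocyte-like cells, high for the immediate early genes, held 1 heat shock UMI. Hspa1a and Hspa1b each stood at 94.9 CPM in dendritic-like cells, and at 58.6 and 66.6 CPM in macrophage/monocyte-like cells.

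**Figure D3:**
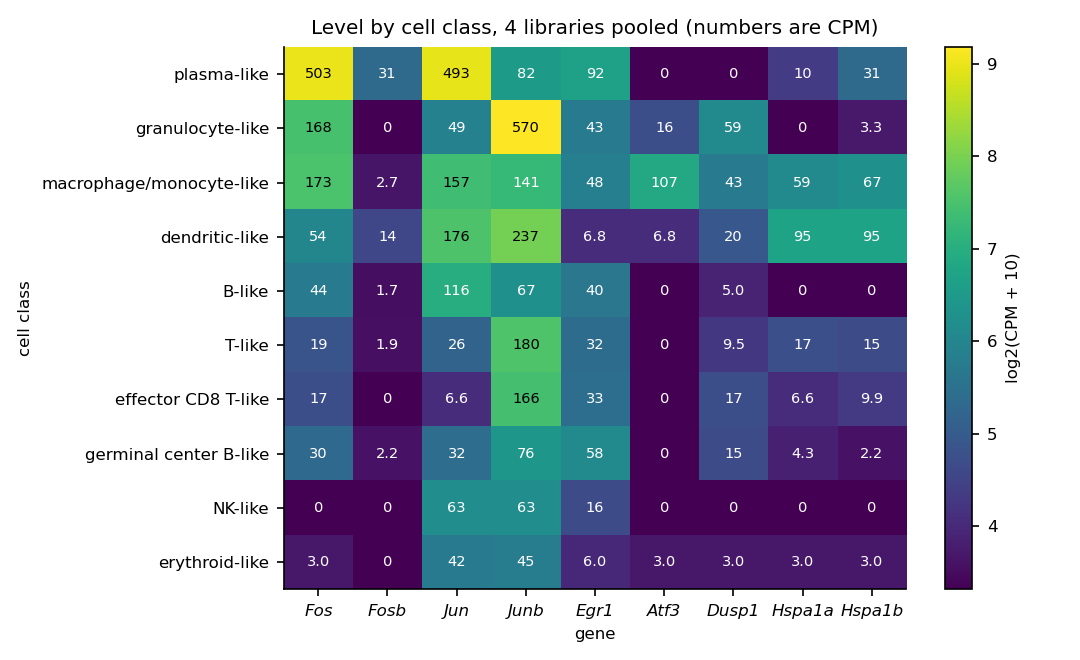
Pooled level of each member in the 10 marker-named classes, with the CPM over the 4 libraries printed in each field and its color set by log2(CPM + 10). Junb is highest in granulocyte-like cells (570 CPM), Atf3 in macrophage/monocyte-like cells (107 CPM) and both heat shock genes in dendritic-like cells (94.9 CPM each).

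Free RNA in droplets can give UMIs to cells that do not express a gene, and depth differs between classes. The share of cells with an immediate early UMI was 57.2% in granulocyte-like, 45.5% in macrophage/monocyte-like and 20.6% in T-like cells, at median depths of 1339, 1984.5 and 957 UMIs. Erythroid-like cells, the class that should hold least, had a share of 18.5% at a median depth of 2726.5 UMIs. Expected after thinning to 400 UMIs, the shares were 37.0%, 17.7%, 10.05% and 4.37% in that order. For Fos they were 12.4% in granulocyte-like, 5.04% in macrophage/monocyte-like, 0.940% in T-like and 0.109% in erythroid-like cells.

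The granulocyte-like class was split sharply by the immediate early genes. It consisted of a cluster of 77 cells led by Cxcr2, Csf3r and Il1b, genes of mature neutrophils, and a cluster of 61 cells led by Camp, Ngp and Ltf, granule genes that neutrophil precursors express. The immediate early sum stood at 2992 CPM (2641 to 3377) in the Cxcr2 cluster and at 60.2 CPM (32.1 to 103) in the Camp cluster, 49.7-fold apart, from 262 and 13 UMIs. The value of the Camp cluster lay beside the 102 CPM (70.8 to 143) of erythroid-like cells, and the class level of 906 CPM described neither cluster. None of the 9 genes had entered the clustering.

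Every immediate early gene with UMIs in these cells was on the same side. Junb stood at 1861 CPM in the Cxcr2 cluster and 46.3 in the Camp cluster, a 40.2-fold difference from 163 and 10 UMIs. Fos stood at 571 and 4.63 CPM, from 50 UMIs and 1. Dusp1 had 17 UMIs and 1, Jun 14 and 1, Egr1 13 and 0, and Atf3 5 and 0. Heat shock genes were not part of this: the Cxcr2 cluster held 0 of their UMIs, and the Camp cluster held 1.

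The contrast appeared in each library. The immediate early sum was 22 UMIs in 3 cells of the Cxcr2 cluster and 1 UMI in 5 cells of the Camp cluster in the isotype control, and 22 UMIs in 6 cells and 0 in 3 cells with anti-CD20. With anti-CD27 it was 2052 CPM against 45.3 in 24 and 25 cells, and with the combination 3122 CPM against 73.5 in 44 and 28 cells. The log2 ratio was 5.50 (4.08 to 7.42) in the former and 5.41 (4.39 to 6.65) in the latter. Cells of the Cxcr2 cluster were shallower, with a median of 951 UMIs against 2909, and held more mitochondrial transcripts, at 4.28% against 1.88%, and the part of these in the difference was not tested. In 1 draw of 400 UMIs per cell, 68.8% of the Cxcr2 cells and 1.64% of the Camp cells had an immediate early UMI.

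Within granulocyte-like cells, the combination stood above anti-CD27. Their immediate early sum was 1016 CPM in 72 cells against 581 CPM in 49 cells, a log2 ratio of 0.81 (0.39 to 1.23). In the Cxcr2 cluster alone it was 0.61 (0.18 to 1.04). Dusp1, with 13 UMIs against 2, differed by 2.31 (0.17 to 5.50), and Junb, at 597 against 440 CPM, by 0.44 with an interval that held 0. Granulocyte-like cells held 94 of the 186 Junb UMIs of the combination library. The isotype control and anti-CD20 libraries had 8 and 9 granulocyte-like cells, too few for a comparison, and their immediate early sums were 1700 and 1851 CPM. In the Cxcr2 cluster alone the sum was 9159 CPM in 3 cells of the isotype control and 5108 CPM in 6 cells with anti-CD20. Both values lay above the 2052 CPM with anti-CD27 and the 3122 CPM with the combination in that cluster.

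**Figure D4:**
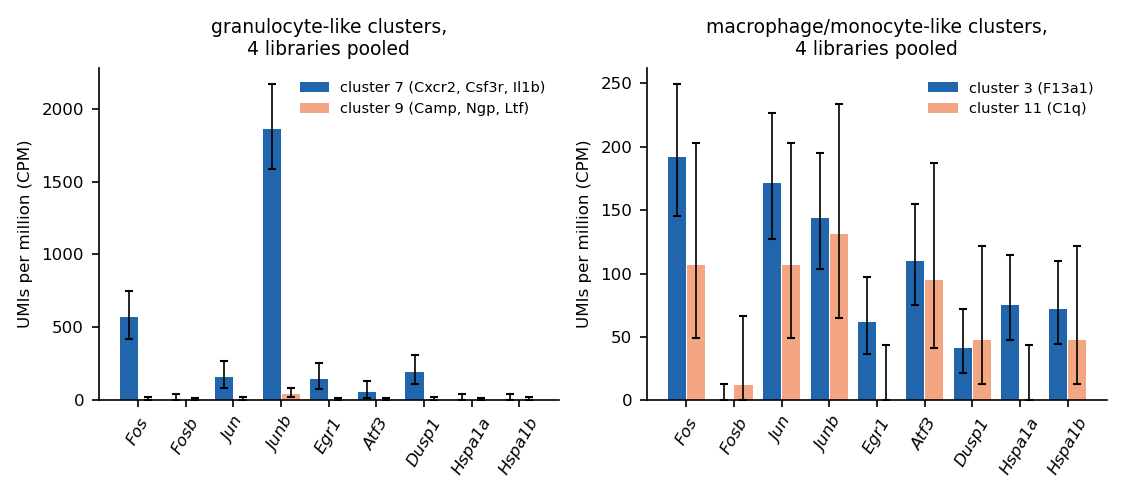
Level of each member in the 2 granulocyte-like clusters (left) and the 2 macrophage/monocyte-like clusters (right), in CPM pooled over the libraries as bars from 0, with exact 95% intervals for counting error. Junb reached 1861 CPM in the Cxcr2 cluster and 46.3 CPM in the Camp cluster.

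In macrophage/monocyte-like cells the libraries differed gene by gene. Fos stood at 366 CPM in the isotype control, 529 with anti-CD20, 140 with anti-CD27 and 103 with the combination. These values rested on 3 of 12, 7 of 19, 8 of 41 and 8 of 84 cells. The combination was below anti-CD20 by a log2 ratio of −2.36 (−3.25 to −1.47). Jun stood at 73.1, 353, 53.8 and 166 CPM in the same order, with the combination below anti-CD20 by −1.09 (−1.97 to −0.14) and above anti-CD27 by 1.62 (0.27 to 3.33). Of the 16 Jun UMIs with anti-CD20, however, 8 came from 1 cell, as did 8 of the 24 Fos UMIs. Without the cell with most of its UMIs in each library, Jun stood at 205 CPM with anti-CD20 and 147 with the combination, a ratio of −0.49 (−1.63 to 0.84) that held 0, whereas Fos stood at 381 and 68.9 CPM, a ratio of −2.47 (−3.58 to −1.35).

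Junb and Atf3 followed another pattern in the same cells. Junb had 0 UMIs in the isotype control and stood at 132 CPM with anti-CD20, 161 with anti-CD27 and 143 with the combination. Atf3 had 0 UMIs in the isotype control and stood at 132, 151 and 89.5 CPM in the other 3 libraries, from 6, 14 and 20 UMIs. With 12 cells in the isotype control, the upper end of the interval for a count of 0 was 270 CPM, so a difference from the other libraries was not detectable at this depth.

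As a sum the immediate early genes of macrophage/monocyte-like cells reached 512 CPM in the isotype control, 1234 with anti-CD20, 581 with anti-CD27 and 604 with the combination. Anti-CD20 stood above the isotype control by 1.27 (0.13 to 2.65), and the combination stood below anti-CD20 by −1.03 (−1.49 to −0.55). Only 19 cells represent anti-CD20 here. In the larger of the 2 clusters of this class, led by the monocyte gene F13a1, the combination was below anti-CD20 by −1.70 (−2.22 to −1.17). This cluster had 10 cells with anti-CD20 and 66 with the combination. The smaller cluster, led by complement C1q genes, had the opposite order. Its sum was 457 CPM with anti-CD20, from 10 UMIs in 9 cells, and 617 CPM with the combination, from 31 UMIs in 18 cells. These were too few cells with anti-CD20 for a ratio.

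The heat shock pair had its highest counts in macrophage/monocyte-like cells of the combination library. The counts were 0 UMIs in the isotype control, 5 with anti-CD20, 4 with anti-CD27 and 38 with the combination, or 0, 110, 43.0 and 170 CPM. The combination was above anti-CD27 by a log2 ratio of 1.98 (0.51 to 3.93), and the interval of its difference from anti-CD20, 0.63 (−0.72 to 2.33), held 0. These 38 UMIs were the larger part of the 55 heat shock UMIs of that library. Within the combination library 36 of them came from the F13a1 cluster, at 208 CPM, and 2 from the cluster led by complement C1q genes, at 39.8 CPM, a log2 ratio of 2.38 (0.43 to 5.48).

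In dendritic-like cells the heat shock sum stood at 296 CPM in the isotype control, 312 with anti-CD20, 180 with anti-CD27 and 101 with the combination, from 8, 7, 7 and 6 UMIs. The combination was the lowest of the 4 there, while it was the highest in macrophage/monocyte-like cells, but the intervals of all 4 comparisons in dendritic-like cells held 0. All 8 heat shock UMIs of dendritic-like cells in the isotype control came from 1 cell.

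**Figure D5:**
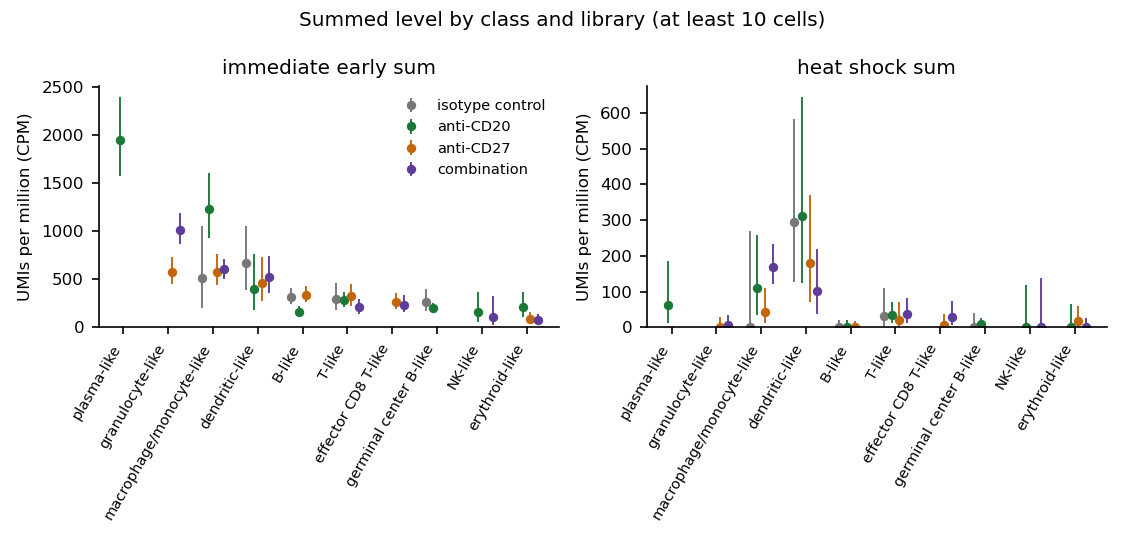
Immediate early sum and heat shock sum in each class and library with at least 10 cells, in CPM with exact 95% intervals. In macrophage/monocyte-like cells the immediate early sum is highest with anti-CD20 (1234 CPM) and the heat shock sum with the combination (170 CPM), and in B-like cells the immediate early sum is lowest with anti-CD20 (157 CPM).

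In B-like cells, among which lymphoma and normal B cells were not told apart, Fos and Jun differed between libraries in opposite directions. Fos stood at 106 CPM in the isotype control, 21.6 with anti-CD20 and 9.19 with anti-CD27, from 20, 4 and 2 UMIs. The UMIs came from 14 of 175, 4 of 99 and 2 of 186 cells, so the isotype control was high through many cells and not through 1. Fos was lower with anti-CD27 by a log2 ratio of −3.53 (−6.67 to −1.48) and with anti-CD20 by −2.29 (−4.30 to −0.71). Expected after thinning to 400 UMIs, Fos would be seen in 4.11% of B-like cells in the isotype control, 1.32% with anti-CD20 and 0.562% with anti-CD27. In barcodes under 300 genes Fos had the same order, at 53.7, 28.0 and 13.7 CPM from 8, 7 and 2 UMIs. The part of free RNA in the B-like values was not tested.

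Jun in B-like cells stood at 84.7 CPM in the isotype control, 86.6 with anti-CD20 and 170 with anti-CD27. It was higher with anti-CD27 than in the isotype control by 1.01 (0.12 to 1.95), just past 2-fold, as were 3.64% of the 2667 genes with 30 UMIs in these cells. Junb stood at 63.5, 32.5 and 101 CPM and Egr1 at 52.9, 16.2 and 50.5 CPM in the same order, with intervals that held 0. With Fos lower and Jun higher, the immediate early sum with anti-CD27 differed by only 0.10 (−0.41 to 0.61). With anti-CD20 it was lower, by −1.02 (−1.71 to −0.35). The 3 B-like cells of the combination library allowed no comparison.

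In germinal center B-like cells Egr1 stood at 119 CPM in the isotype control and 48.6 with anti-CD20, a log2 ratio of −1.29 (−2.48 to −0.03). Fos, at 32.4 and 27.4 CPM there, had a log2 ratio of −0.24 (−2.24 to 2.28), and whether it differed from that of B-like cells was not tested. The number of cells was 51 and 127. Without the cell with most Egr1 UMIs in each library the Egr1 ratio was −1.13 (−2.51 to 0.35), so that its interval held 0.

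In T-like cells no difference between libraries was larger than counting error. The immediate early sum was 293 CPM in the isotype control, 280 with anti-CD20, 325 with anti-CD27 and 208 with the combination, and the intervals of all 4 comparisons held 0. The widest of these differences, the combination against anti-CD27, was −0.65 (−1.39 to 0.10). Junb stood at 201, 167, 246 and 145 CPM in the same order. In effector CD8 T-like cells, a class that the anti-CD27 and combination libraries supply with 55 and 50 cells, the sum was 264 and 237 CPM, a log2 ratio of −0.16 (−0.87 to 0.55), and Junb stood at 203 and 144 CPM.

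The 2 T-like clusters differed in their pooled immediate early sum. The larger, of 369 cells led by Cd4, held 310 CPM, and the smaller, of 96 cells led by Cd8b1 and Cd8a, 126 CPM. The log2 ratio was 1.29 (0.52 to 2.17). By library it was 1.24 (0.09 to 2.63) with anti-CD20, 0.997 (−0.51 to 2.97) with anti-CD27 and 0.76 (−0.75 to 2.73) with the combination. In the isotype control the counts were 19 UMIs and 0. Junb, at 212 and 67.4 CPM in the 2 clusters, accounted for most of their immediate early UMIs and differed by 1.66 (0.61 to 2.91). In erythroid-like cells the sum was 76.4 CPM with the combination and 211 CPM with anti-CD20, from 11 and 12 UMIs, a log2 ratio of −1.46 (−2.79 to −0.16). Of the 12 UMIs 7 were Jun, 4 of them in 1 cell. Without the cell with most Jun UMIs in each library the Jun ratio was −2.97 (−8.69 to 0.66).

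Within cells, Junb was seen more often where Fos was seen. Junb UMIs occurred in 41.8% of the 122 cells with a Fos UMI (32.9% to 51.1%) and in 14.9% of the cells without (13.2% to 16.7%). In granulocyte-like cells these shares were 78.1% and 39.6%, but within the Cxcr2 cluster, which held all but 1 of the granulocyte-like cells with Fos, they were 80.6% of 31 cells and 76.1% of 46 cells. Jun occurred in 19.7% of cells with Fos and 6.25% of those without, but deeper cells show more of every gene. In 1 draw of 400 UMIs per cell Junb was at 26.5% against 6.28%, whereas Jun was at 2.04% against 2.76%. The draw evens depth but not the mix of clusters, since 17 of its 49 cells with Fos were of the Cxcr2 cluster. Hspa1a and Hspa1b shared 11 cells, of 28 cells with Hspa1a and 38 with Hspa1b. Of the 1770 cells, 41 held UMIs of at least 3 immediate early genes, of which 14 were macrophage/monocyte-like and 14 granulocyte-like.

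Mitochondrial transcripts, whose share is often read as a sign of damage, did not go one way with the immediate early genes. Median mitochondrial shares with and without such a UMI were 4.57% and 5.07% in B-like, 5.36% and 5.36% in T-like, 4.30% and 4.63% in macrophage/monocyte-like and 3.03% and 4.22% in dendritic-like cells. In NK-like cells they were 3.66% and 3.08%, in erythroid-like cells 3.92% and 3.09%, in germinal center B-like cells 4.32% and 4.16%, in effector CD8 T-like cells 3.90% and 4.83%, and in plasma-like cells 1.48% and 1.85%. In granulocyte-like cells they were 3.53% and 1.78%, and the 2 clusters of that class differed in the same direction. Whether handling of the tissue contributed to the levels was not tested.

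The genes around the members in the same pathways moved only in part. Of 18 feedback inhibitors of immediate early signaling with at least 30 UMIs, 7 were 2-fold higher and 2 were 2-fold lower with the combination than with anti-CD20, beside 9.57% and 8.54% of all genes, with a median log2 ratio of 0.63. Socs3, an inhibitor of cytokine signaling, stood at 11.7 CPM with anti-CD20 and 66.5 with the combination, and Ier3, a stress-response gene of which granulocyte-like cells held 26 of 52 UMIs, at 3.19 and 39.2 CPM. Dusp5, a nuclear phosphatase for ERK, stood at 11.7 and 34.9 CPM. Zfp36l1, an RNA-binding protein that promotes mRNA decay, was lower, at 444 and 143 CPM. B-like cells held 407 of its 1019 UMIs, and the germinal center class held 223. With anti-CD20 these classes had 99 and 127 cells, against 3 and 0 with the combination. The part of this in the lower Zfp36l1 level was not tested. Of 8 other immediate early transcription factors 1 was 2-fold higher, Ier2, at 76.6 and 169 CPM, and of 8 other AP-1 and ATF family genes 1 was 2-fold higher, with 0 lower in both lists. Klf2, a factor of resting lymphocytes, was highest in the isotype control, at 418 CPM. It stood at 216 CPM with anti-CD20, 151 with anti-CD27 and 180 with the combination. T-like cells held 259 and B-like cells 179 of its 689 UMIs, and the part of the make-up of cells in these levels was not tested.

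Most other heat shock genes stayed within 2-fold. Of 14 other inducible heat shock and co-chaperone genes with 30 UMIs, 1 was 2-fold higher with the combination than with anti-CD20 (Hspa4l, at 39.2 against 19.2 CPM) and 0 were 2-fold lower, with a median log2 ratio of 0.02. Hsp90aa1, the inducible cytosolic Hsp90, stood at 427 and 431 CPM, and Dnaja1, a co-chaperone of the 70-kDa proteins, at 301 and 199 CPM. Of 15 constitutive or compartment chaperones 0 were past 2-fold, with a median of −0.04. Of 10 oxidative and DNA damage stress genes 4 were 2-fold higher and 0 lower, beside 9.57% and 8.54% of all genes. Among the 4 was the metallothionein Mt1, at 25.5 and 124 CPM. Erythroid-like cells held 154 of the 228 Mt1 UMIs, and the combination library had 47 such cells against 20 with anti-CD20. Of 12 lymphocyte activation genes 5 were 2-fold higher and 2 lower in this comparison, and 5 and 2 with anti-CD27 against the isotype control, where 7.46% and 6.34% of all genes were. With anti-CD20 against the isotype control 4 of 10 were 2-fold higher and 0 lower, beside 3.45% and 3.09% of all genes. The chemokines Ccl3 and Ccl4 were among the higher genes where anti-CD27 was added. With anti-CD20 alone they were also above the isotype control, at 40.4 against 11.3 CPM for Ccl3 and 90.5 against 9.08 CPM for Ccl4. Effector CD8 T-like cells held 216 of 306 Ccl3 UMIs and 364 of 531 Ccl4 UMIs. There were 2 such cells in the isotype control, 7 with anti-CD20, 55 with anti-CD27 and 50 with the combination.

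Across the 21 combinations of class and library with at least 20 cells, the members were loosely related to each other. On log2(CPM + 50), the Pearson correlation was 0.45 between Fos and Junb, 0.20 between Fos and Jun and −0.14 between Jun and Junb. Among 5383 genes with at least 100 UMIs, the 3 most like Fos were Slc15a3 (0.87), Plekho2 (0.82) and Mboat7 (0.81), and the 3 most like Junb were Gmfg (0.85), S100a11 (0.82) and Glrx (0.81). Zeb2 (0.76) was most like Jun, and Osbpl9 (0.79), Bcl10 (0.76) and Pknox1 (0.74) were most like Egr1. The 21 points share libraries and differ in depth, so these values are a description.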

How the data were processed

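Drop-seq libraries of digested spleens, 1 for each of 4 treatments, were analysed. The authors aligned reads to mm10 with STAR 2.5.0a, obtained UMIs for each gene in each barcode from Dropseq-tools, and deposited the raw UMI counts, neither filtered nor scaled. The table of 17252 genes had no column without a group. The study's own limits of 300 and 3000 detected genes per barcode were applied. Counts were log-normalized, and 2000 variable genes (without the members and the 101 genes of the 7 wider lists), 30 components, 15 neighbours and Leiden clustering at resolution 1 (scanpy 1.11.5, leidenalg 0.10.2) gave 13 clusters. Cluster names came from the class with most markers among the 30 leading genes, at least 3 of them. Scrublet marked 16 of 1770 cells (0.904%) as doublets, which were kept and left out as an alternative.

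UMIs were summed per library or class and given as CPM with exact Poisson intervals. Ratios had exact conditional binomial intervals and needed 10 cells of a class in both libraries, and shares had exact Clopper-Pearson intervals, all at 95%. A count of 0 was given a floor of 3 counts per library. A gene was called at 2-fold with at least 30 UMIs over both libraries. Shares after thinning to 400 UMIs were taken as the hypergeometric expectation or, where stated, from 1 draw. Interval and ratio code was tested on simulated counts. Every member was named, with the 4 most counted genes of each wider list and any past 4-fold whose interval excluded no change, and for members with at least 100 UMIs the 3 most like genes, of which some are not reported here. Motifs were searched in RefSeq promoters. The members and lists were chosen with earlier results of these data known. Alternatives were other gene limits, Leiden resolutions, thinning depths, doublet removal, TMM factors from edgeR 4.0.16 (R 4.3.3), the mean over cells, classes weighted alike and removal of the top cell. Another 5, which leave out classes, clusters or top cells, were added after seeing the data. Python 3.11.15, numpy 2.4.6 and scipy 1.17.1 were used.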

Additional observations from a re-analysis of the deposited data

Results flagged for a closer look

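The immediate early sum went opposite ways in 2 classes under the same treatment. With anti-CD20 against the isotype control, the log2 ratio was 1.27 (0.13 to 2.65) in macrophage/monocyte-like cells, from 56 UMIs in 19 cells and 7 UMIs in 12 cells, and −1.02 (−1.71 to −0.35) in B-like cells, from 29 UMIs in 99 cells and 60 UMIs in 175 cells. Both intervals cover counting error only, each arm is 1 library, and the difference between the classes was not tested.

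Heat shock UMIs also appeared in barcodes that the limit of 3000 detected genes leaves out. In the 14 such barcodes of the anti-CD27 library Hspa1a and Hspa1b together stood at 71.2 CPM (39.0 to 120), from 14 UMIs, and in the 30 of the combination library at 46.0 CPM, from 21 UMIs. The 2 such barcodes of the isotype control held 0 of 48061 UMIs, which allows up to 76.8 CPM at the upper end of the interval, so a difference from the control was not detectable at this depth.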

How the results depend on the processing

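No paired analysis was possible because each treatment is 1 library. All values are log2 ratios. Of 72 alternatives for the 2 sums over all cells, 58 stayed within the interval of the main value, 10 left it and 4 turned its direction. A turn was counted only where the main interval excluded no change, so other changes of sign are among the rest. Within classes 96 of 98 stayed and 2 left. For single members and shares 256 of 283 stayed, 20 left and 7 turned. For the combination against anti-CD20, the immediate early sum of 0.26 became −0.0735 without an upper limit on genes, −0.66 with classes weighted alike, −0.12 without granulocyte-like cells and 0.58 as a mean over cells, and the heat shock sum of 1.17 became −0.11 with classes weighted alike and 0.22 without macrophage/monocyte-like and dendritic-like cells. In that comparison Fos and Jun turned to 0.11 and 0.0198 as means over cells, and with classes weighted alike Junb turned to −0.22, Atf3 to −0.49, Dusp1 to −0.70 and Hspa1a to −0.27. For the combination against anti-CD27, the immediate early sum became 0.0344 with classes weighted alike and 0.0531 without granulocyte-like cells, and the heat shock sum 0.83 with classes weighted alike and 0.80 as a mean over cells. With anti-CD27 against the isotype control, the heat shock sum of −0.28 became 1.40 without the cell holding most of its UMIs in each library and 1.57 as a mean over cells, and Egr1 turned to 0.37 with classes weighted alike. With anti-CD20 against the isotype control, the heat shock sum of 0.23 became 2.22 without those cells and 1.58 without macrophage/monocyte-like and dendritic-like cells, since 8 of the 10 heat shock UMIs of the isotype control lay in 1 dendritic-like cell. Within macrophage/monocyte-like cells the immediate early sum of the combination became −1.70 against anti-CD20 in the F13a1 cluster alone and −0.51 against anti-CD27 at resolution 2. With at least 500 genes per cell, 2 comparisons in these cells had under 10 cells in the isotype control and gave no value. Except where the removed cells show it, the cause was not tested. With 1 library per treatment and under 30 UMIs for some members, only large differences could be seen.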

Other observations

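The barcodes that the gene limits leave out also held the members. The 1377 barcodes under 300 genes held 736295 UMIs, of which 53.5% were hemoglobin and 9.08% mitochondrial. In them the immediate early sum stood at 153 CPM over all libraries, at 262 in the isotype control, 104 with anti-CD20, 116 with anti-CD27 and 162 with the combination, each below the level in the kept cells of that library. Junb stood at 78.8 CPM, Fos at 24.4 and the heat shock sum at 9.51. By library, Fos in these barcodes stood at 53.7 CPM in the isotype control, 28.0 with anti-CD20, 13.7 with anti-CD27 and 5.22 with the combination. These values came from 8, 7, 2 and 1 UMIs. In the 51 barcodes over 3000 genes the immediate early sum stood at 121 CPM and the heat shock sum at 45.4 CPM, beside 386 and 33.4 CPM in the kept cells.

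The cells with the most immediate early UMIs were few and of several classes. A plasma-like cell with anti-CD20 held 50 of them among 7351 UMIs, 27 of Jun, 11 of Fos and 6 of Junb, and a further plasma-like cell of that library held 25 among 4317. A macrophage/monocyte-like cell with the combination held 18 among 5653, and a granulocyte-like cell of the same library held 17 among 976, 9 of them Junb. Cells with at least 3 immediate early genes numbered 4 in the isotype control, 10 with anti-CD20, 8 with anti-CD27 and 19 with the combination, 11 of the last being granulocyte-like.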
